A study of Homo sapiens with 8 samples.

Results

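RNA sequencing of PANC-1 cells was used to describe 10 genes that act on fatty acids, on the acyl chains of membranes or on their peroxidation. They are ALOXE3, ACSL1, ACSL3, ACSL4, ACSL5, LPCAT3, GPX4, AIFM2, SCD and FADS2. All 10 were found by symbol among the 20263 genes of the table, and 9 of them reached a TPM (a level per transcript length, scaled to the same sum in every library) of at least 1 in at least 4 libraries and were tested. The genes were chosen by their roles and with their values in this same comparison known, ALOXE3 as one of the largest rises. Their differences between groups are therefore given as a description, with no test of their own. Where a member is said below to pass or lose a threshold, this gives its place in the fit over all genes. It is not support for a difference, because the values were known when the member was chosen. The established human line PANC-1 was derived from a pancreatic ductal carcinoma. The cultures were exposed for 24 h to 10 μM Eupalinolide B (EB), a sesquiterpene lactone from the plant Eupatorium lindleyanum, or to the vehicle DMSO, with 4 libraries in each group. Both groups were otherwise the same unmodified line, and all values come from that single line. The methods of the study call the libraries of a group biological replicates, but a passage of the same methods also speaks of triplicates.

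Membrane phospholipids that carry polyunsaturated fatty acids can be oxidised to lipid peroxides, and the spread of this oxidation through iron-dependent radicals is the chemical basis of ferroptosis. Acyl-CoA synthetases of the ACSL family activate free fatty acids, LPCAT3 places the activated polyunsaturated chains into phospholipids, and desaturases such as SCD and FADS2 set how many double bonds the chains carry. GPX4 reduces phospholipid hydroperoxides with glutathione, and AIFM2, also called FSP1, regenerates radical-trapping ubiquinol. The study asked which form of cell death EB causes in these cells and examined ferroptosis among several candidates.

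TPM have a fixed sum, so the reads behind a value, and with them the depth, are unknown. The mitochondrially encoded genes took 17, 21.1, 21 and 39% of the TPM in DMSO replicates 1 to 4. In EB replicates 1 to 4 they took 11.6, 14.7, 12.2 and 20.3%. Replicate 4 was thus the highest of both groups. DMSO replicate 4 stood apart from all other libraries, so results are also given without it. Of the cell markers, KRT8, KRT18, KRT19, SOX9, MUC1 and VIM were detected, whereas KRT7, EPCAM and CDH1 stayed below 1 TPM in every library. All acinar and islet markers were listed at 0. The leukocyte markers PTPRC and CD3E were at 0, and their list, carried by CD14, summed to at most 1.37 TPM in any library. The endothelial list, with PECAM1 at 0, summed to 0.214 to 0.305 TPM with DMSO and to at most 0.0174 with EB. Of the fibroblast markers DCN and LUM were at 0, COL1A1 had means of 1.87 TPM with DMSO and 0.896 with EB, and COL1A2 of 79.4 and 43.9. Across all 11725 tested genes the median log2 fold change, EB minus DMSO, was −0.11, and it fell with transcript length from 0.41 for canonical transcripts of 276 to 1225 nucleotides to −0.54 for those of 7315 nucleotides and more. A fit with the trend on length removed is given below where it ended a call or moved a value by over 1.5 times. This covers the members and the called genes named from the lipid classes or near ALOXE3. For other genes, such as paralogs of the members that were not called, only the main fit is given. In a bulk library a lower TPM from fewer cells with the transcript and one from less transcript per cell cannot be told apart.

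Promoter sequences are shown first, for the gene with the largest difference in each direction and for AIFM2, whose sequence held overlapping motifs. Each is the 250 bases before the start site that RefSeq gives (GRCh38.p14) and that is also the start of the canonical transcript in GENCODE. The capitals mark matches, on either strand, to the CCAAT box bound by NF-Y (CCAAT), the sterol regulatory element (TCACNCCAC), the core of the antioxidant response element (TGACNNNGC), the C/EBP-ATF response element (TGATGNAAT), the AP-1 site (TGACTCA) or the E-box (CACGTG).
ALOXE3, chr17:8118515-8118764, minus strand: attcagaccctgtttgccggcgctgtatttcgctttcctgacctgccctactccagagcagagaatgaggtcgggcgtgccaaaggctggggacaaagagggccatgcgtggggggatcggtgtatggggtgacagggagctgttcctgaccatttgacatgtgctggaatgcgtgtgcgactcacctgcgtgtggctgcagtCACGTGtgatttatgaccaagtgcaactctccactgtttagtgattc
SCD, chr10:100346983-100347232, plus strand: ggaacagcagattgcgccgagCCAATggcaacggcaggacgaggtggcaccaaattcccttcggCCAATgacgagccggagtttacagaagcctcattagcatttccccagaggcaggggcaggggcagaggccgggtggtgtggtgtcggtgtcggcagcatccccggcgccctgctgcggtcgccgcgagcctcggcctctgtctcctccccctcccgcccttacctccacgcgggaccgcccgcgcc
AIFM2, chr10:70132826-70133075, minus strand: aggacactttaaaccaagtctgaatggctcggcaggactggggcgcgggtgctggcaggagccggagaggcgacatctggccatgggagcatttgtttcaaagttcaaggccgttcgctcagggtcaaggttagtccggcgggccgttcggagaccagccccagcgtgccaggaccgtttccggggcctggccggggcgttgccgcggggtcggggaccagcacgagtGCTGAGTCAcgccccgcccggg

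The ALOXE3 window held 1 E-box, 47 bases before the start. Of the windows at other ALOXE3 starts that RefSeq gives, 1 held no match and 1 held 2 CCAAT boxes and an antioxidant response element core. The SCD window held 2 CCAAT boxes, at 229 and 186 bases. In the AIFM2 window the antioxidant response element core, on the reverse strand from 22 bases before the start, and the AP-1 site from 20 bases overlapped. Of the 35116 RefSeq windows, 32% held a CCAAT box, 10.9% an antioxidant response element core, 6.34% an E-box, 4.2% an AP-1 site, 0.888% a C/EBP-ATF response element and 0.883% a sterol regulatory element. A match is a stretch of letters and not a measured binding site. No sterol regulatory element of this spelling lay in the SCD window, in either FADS2 window or in the LPCAT3 window. Neither FADS2 window lies at the start of the canonical transcript in GENCODE, so the bases before that start were not searched. Of the 20 windows that RefSeq gives for the 10 genes, 1 held such an element, at another start of ACSL1.

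ALOXE3 was the member that differed most. It encodes eLOX3, a lipoxygenase best known from the epidermis, where it isomerises fatty acid hydroperoxides made by the 12R-lipoxygenase ALOX12B rather than adding oxygen itself. In hg38 the gene (ENSG00000179148) spans positions 8095900 to 8119047 of chromosome 17, minus strand, and its canonical transcript has 16 exons. Its TPM was 0.975, 1.68, 1.13 and 1.04 in DMSO replicates 1 to 4 and 13.1, 14.2, 11.3 and 16.2 in EB replicates 1 to 4. The lowest EB library thus lay far above the highest DMSO library, and DMSO replicate 4 did not stand apart for this gene. With DMSO the mean was 1.21 ± 0.324 TPM (SD, n = 4), and the EB mean of 13.7 ± 2.06 (SD, n = 4) was 11.3 times as high. On the scale of log2(TPM + 1) the difference was 2.74 (standard error 0.15, 95% interval 2.40 to 3.07), and the pseudocount of 1 matters for a gene near 1 TPM, since it was 3.42 with a pseudocount of 0.1.

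The other lipoxygenase genes did not share this pattern. ALOX12, which encodes the platelet-type 12-lipoxygenase, was the only other ALOX gene that was tested. It fell by 0.73 on the log2 scale (limma adjusted p = 0.00455, Benjamini-Hochberg over all tested genes). It had 2.71 ± 0.499 TPM (SD, n = 4) with DMSO and 1.24 ± 0.286 (SD, n = 4) with EB. After quantile normalization it was at −0.46, still called. ALOX12B, the upstream partner of ALOXE3 in the epidermis and its neighbour on the chromosome, was at most 0.0943 TPM in any library. ALOX15 was at most 0.240 TPM and ALOX15B at most 0.0288, and ALOX5 was listed at 0 in all. Among markers of keratinocyte differentiation, FLG, IVL and KRT1 were at or near 0, and KRT10 had means of 16.6 TPM with DMSO and 33.6 with EB.

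Genes within 100 kb of ALOXE3 moved in different directions. HES7, the next gene, rose by 0.70 on the log2 scale (limma adjusted p = 0.0139, and by 1.12 with a pseudocount of 0.1), with means of 1.01 ± 0.385 TPM for DMSO and 2.26 ± 0.642 for EB (SD, n = 4 each), and the mitotic kinase gene AURKB rose by 0.68 (limma adjusted p = 0.00956) and was at 0.43 with the length trend removed. PER1, a repressor of the circadian clock, fell by 0.86 on the log2 scale (limma adjusted p = 0.0057) and was at −0.54 with the length trend removed. VAMP2 had a log2 fold change of −0.08, TMEM107 of 0.17 and BORCS6 of 0.48, none past a limma adjusted p of 0.05. These neighbours were chosen by position and described after their values were seen. Over the 8 libraries, the profiles closest to that of ALOXE3 in log2(TPM + 1) relative to the DMSO mean were those of CD68, AKR1C1 and ASNS, with root mean square differences of 0.154, 0.237 and 0.242. CD68 encodes a lysosomal membrane protein, AKR1C1 an aldo-keto reductase and ASNS the asparagine synthetase. Likeness on this measure mostly follows the size of the difference between groups, because the EB and DMSO libraries form separate clusters.

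**Figure D1:**
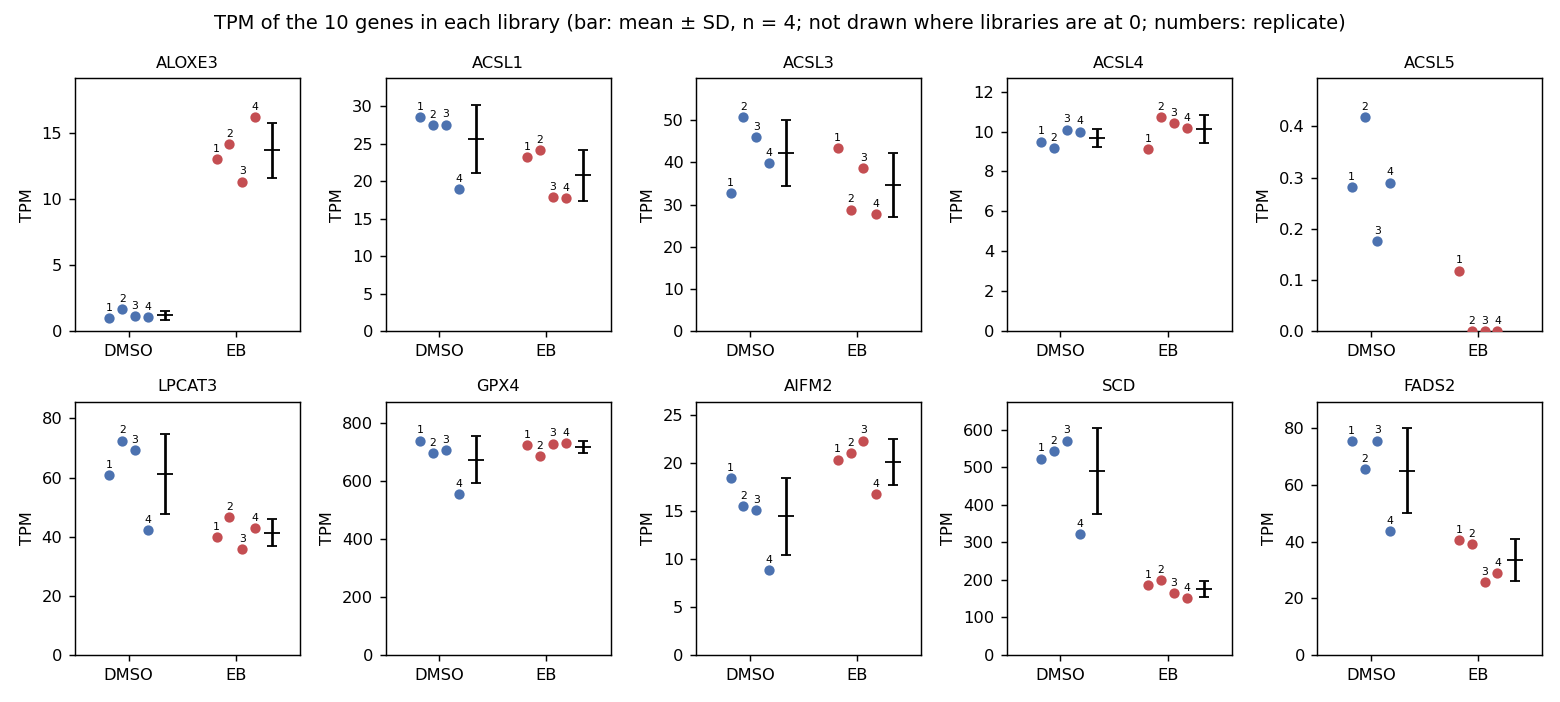
TPM (vertical axes, each from 0) of the 10 genes in the 4 DMSO and the 4 EB libraries, 1 point a library with its replicate number and the mean ± SD beside it except for ACSL5, which is listed at 0 in some libraries. ALOXE3 lay at 11.3 to 16.2 TPM with EB against 0.975 to 1.68 with DMSO, SCD at 151.6 to 199.2 against 321.0 to 570.4, and DMSO replicate 4 was the lowest DMSO library for ACSL1, LPCAT3, GPX4, AIFM2, SCD and FADS2.

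SCD and FADS2, the desaturases, were lower with EB. SCD introduces the double bond that turns stearate and palmitate into monounsaturated fatty acids, which are resistant to peroxidation. It was the second most abundant of the 10 genes in both groups. SCD (ENSG00000099194) spans positions 100347233 to 100364826 of chromosome 10, plus strand. Its TPM was 522.4, 542.9, 570.4 and 321.0 in DMSO replicates 1 to 4 and 185.8, 199.2, 164.0 and 151.6 in EB replicates 1 to 4. Every EB library lay below every DMSO library, including the low DMSO replicate 4. The DMSO mean of 489.2 ± 113.8 TPM (SD, n = 4) was 2.79 times the EB mean of 175.1 ± 21.4 (SD, n = 4), and the log2 fold change was −1.45 (standard error 0.19, 95% interval −1.88 to −1.02). Without DMSO replicate 4 it was −1.64. With the trend on transcript length removed it was −1.08, the smallest difference under any setting tried, and genes with transcripts of similar length (4566 to 5584 nucleotides) had a median of −0.35.

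FADS2 is the delta-6 desaturase, which opens the conversion of linoleate and α-linolenate into arachidonate and the longer omega-3 chains. The gene (ENSG00000134824, chromosome 11, 61792980 to 61867354, plus strand) had 75.7, 65.5, 75.7 and 43.7 TPM in DMSO replicates 1 to 4 and 40.5, 39.2, 25.8 and 28.9 in EB replicates 1 to 4. The groups did not overlap, but EB replicates 1 and 2 came close to DMSO replicate 4. The log2 fold change was −0.93 (standard error 0.21, 95% interval −1.40 to −0.45), from means of 65.1 ± 15.1 TPM (SD, n = 4) with DMSO and 33.6 ± 7.35 (SD, n = 4) with EB. Without DMSO replicate 4 it was −1.10. FADS2 overlaps FADS1 on the opposite strand and FEN1 on its own strand in the annotation, and whether the reads were counted by strand is not given in the sources used here. FEN1 differed in the other direction, at 0.68 on the log2 scale.

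SCD was lower by more than FADS2. The ratio of SCD to FADS2 within a library, which does not depend on how libraries are scaled to each other, was 6.91 to 8.28 with DMSO and 4.59 to 6.35 with EB, without overlap. The ratio of SCD to GPX4 was 0.580 to 0.810 with DMSO and 0.208 to 0.291 with EB. Such ratios still carry the trend on transcript length. The canonical transcripts have 5245 nucleotides for SCD, 3091 for FADS2 and 851 for GPX4. With the length trend removed the log2 fold changes of SCD and FADS2 lay closer together, at −1.08 and −0.80. The 3 profiles nearest to that of SCD were those of MARVELD1, ARHGEF17 and LIPG, at root mean square differences of 0.0715, 0.0812 and 0.0892, and LIPG encodes the endothelial lipase.

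Of the acyl-CoA synthetases, ACSL3 was the most abundant, followed by ACSL1 and ACSL4, in both groups. ACSL4 prefers arachidonate and adrenate and is the member of the family most closely tied to ferroptosis. Its TPM was 9.50, 9.15, 10.1 and 10.0 in DMSO replicates 1 to 4 and 9.12, 10.7, 10.4 and 10.2 in EB replicates 1 to 4, so that the groups overlapped. The log2 fold change was 0.06, with a 95% interval of −0.19 to 0.30. The sign of this difference depended on the scaling, with −0.12 after removal of the mitochondrial genes, 0.31 after quantile normalization and 0.40 with the length trend removed. ACSL4 spans positions 109624244 to 109733403 of chromosome X, minus strand.

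ACSL3, which provides acyl chains for lipid droplets and can favour monounsaturated chains, had 32.6, 50.7, 45.9 and 39.7 TPM in DMSO replicates 1 to 4 and 43.3, 28.8, 38.7 and 27.7 in EB replicates 1 to 4. ACSL1, the main form in liver, fat and heart, had 28.6, 27.5, 27.6 and 19.0 TPM with DMSO and 23.2, 24.2, 17.9 and 17.8 with EB, in the same order of replicates. Both sets overlapped, and both genes had a log2 fold change of −0.29, with 95% intervals of −0.71 to 0.14 for ACSL3 and −0.67 to 0.09 for ACSL1. For ACSL1 the overlap came from DMSO replicate 4. Without that library the DMSO range was 27.5 to 28.6 TPM against 17.8 to 24.2 with EB, the log2 fold change was −0.42, and the gene passed a limma adjusted p of 0.05. It also passed without the mitochondrial genes (−0.47), and it was at −0.18 after quantile normalization and −0.08 with the length trend removed. ACSL3 was at −0.47 without the mitochondrial genes and at 0.10 with the length trend removed, neither called. ACSL3 was 45.9 to 57.7% of the summed TPM of ACSL1, ACSL3, ACSL4, ACSL5 and ACSL6 with DMSO and 45.1 to 57.7% with EB. ACSL4 was 12.6 ± 1.76% (SD, n = 4) of that sum with DMSO and 15.7 ± 2.68% (SD, n = 4) with EB, with overlap.

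ACSL5, a form found in intestine and liver and at mitochondria, stayed below 1 TPM and was not tested. It was at 0.281, 0.418, 0.175 and 0.290 TPM in the DMSO libraries, at 0.118 in EB replicate 1 and listed at 0 in the other EB libraries. No fold is given at this level. ACSL6 was at most 0.119 TPM in any library.

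LPCAT3 encodes the lysophospholipid acyltransferase that prefers arachidonoyl and linoleoyl chains. It spans positions 6976185 to 7018477 of chromosome 12, minus strand. The DMSO libraries held 60.9, 72.4, 69.2 and 42.3 TPM and the EB libraries 39.9, 46.6, 35.8 and 43.0, in the order of replicates. DMSO replicates 1 to 3 lay above all EB libraries, and DMSO replicate 4 lay among them. The log2 fold change was −0.53 (standard error 0.18, 95% interval −0.93 to −0.13). It counted among the genes past a limma adjusted p of 0.05, but lost this call in 7 of 17 alternatives, namely without a filter on low values and when DMSO replicate 1, 2 or 3 or EB replicate 1, 3 or 4 was left out, with fold changes of −0.55 to −0.44. Without DMSO replicate 4 it was −0.70. LPCAT3 shares bases with EMG1 and C1S on the opposite strand, which had log2 fold changes of 1.42 and −0.70. The ratio of LPCAT3 to ACSL4, the enzymes that act in sequence on arachidonate, was 4.23 to 7.91 with DMSO and 3.43 to 4.38 with EB. Of the paralogs, LPCAT1, the surfactant and platelet-activating factor form, had a log2 fold change of 0.43 and LPCAT4 of −0.41, with limma adjusted p values of 0.0651 and 0.0511.

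GPX4 and AIFM2, which protect membranes from peroxidation by separate routes, were not among the called genes. GPX4 (ENSG00000167468, chromosome 19, 1103982 to 1106791, plus strand) was the most abundant of the 10 genes. Its TPM was 737.7, 694.7, 704.4 and 553.1 in DMSO replicates 1 to 4 and 721.2, 684.1, 728.0 and 729.8 in EB replicates 1 to 4. The groups overlapped, and apart from DMSO replicate 4 all libraries lay within 684.1 to 737.7 TPM. The log2 fold change was 0.10, with a 95% interval of −0.18 to 0.38, and 0.01 without DMSO replicate 4. It was negative after quantile normalization (−0.17), after removal of the mitochondrial genes (−0.09) and with the length trend removed (−0.23), where it passed a limma adjusted p of 0.05. GPX4 has the shortest canonical transcript of the 10 genes, at 851 nucleotides, and genes with transcripts of 276 to 1225 nucleotides had a median of 0.41.

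AIFM2 (chromosome 10, 70098223 to 70132934, minus strand) had 18.4, 15.5, 15.1 and 8.81 TPM in DMSO replicates 1 to 4 and 20.4, 21.1, 22.4 and 16.8 in EB replicates 1 to 4. EB replicate 4 lay below DMSO replicate 1, and the other EB libraries lay above all DMSO libraries. The log2 fold change was 0.49 (standard error 0.21, 95% interval 0.03 to 0.95), and the gene was not called. It passed in 5 of 17 alternatives, namely median-ratio scaling (0.58), quantile normalization (0.66), removal of the length trend (0.62), a replicate block (0.49) and without DMSO replicate 1 (0.61). Without DMSO replicate 4 the log2 fold change was 0.28. Per 100 TPM of GPX4 there were 1.59 to 2.50 TPM of AIFM2 with DMSO and 2.30 to 3.08 with EB.

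**Figure D2:**
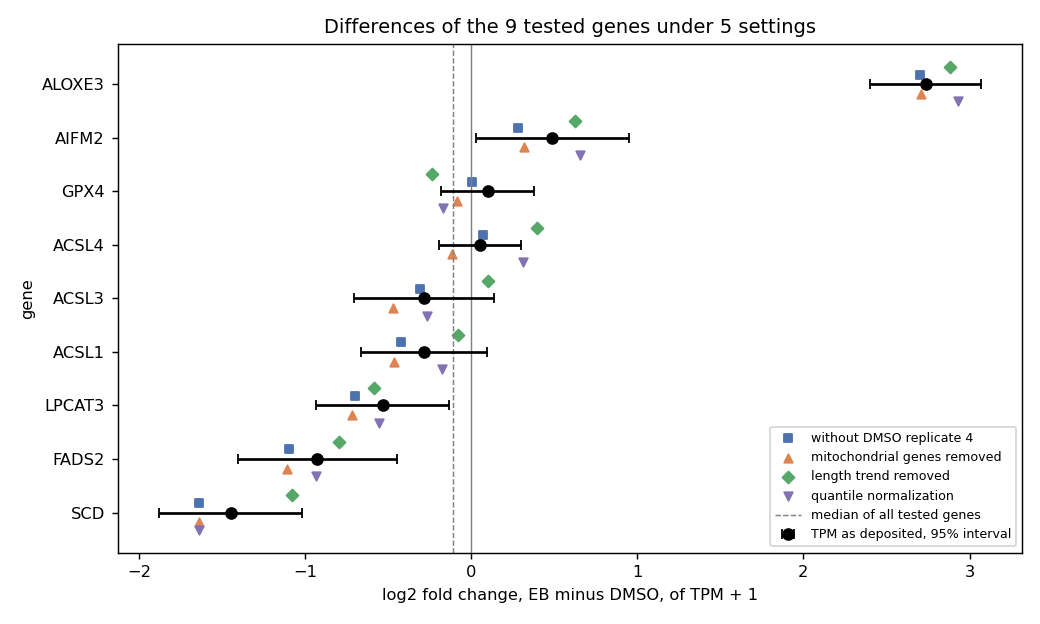
Log2 fold change, EB minus DMSO, of TPM + 1 (horizontal axis) for the 9 tested genes, with the 95% interval of the limma fit in black and the value under 4 alternatives in colour. ALOXE3 at 2.74, SCD at −1.45 and FADS2 at −0.93 lay away from 0 under every setting drawn, whereas ACSL3, ACSL4 and GPX4 lay on both sides of 0.

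Of the 9 tested members, 1 was higher (ALOXE3) and 3 were lower (SCD, FADS2 and LPCAT3) at a limma adjusted p under 0.05, where 15.2% of all tested genes were higher and 25.1% lower. With the thresholds that the study used, 1.5 for the size of the log2 fold change and 0.05 for the unadjusted p, ALOXE3 was higher and no member was lower, with 0.537% of all genes higher and 1.54% lower. SCD was just short of that fold change with all libraries. The EB libraries of 1 member lay above all DMSO libraries and those of 2 members below, beside 16.6% and 20.3% of all genes. Without DMSO replicate 4, 4 members were lower, with ACSL1 added, and without any other library but EB replicate 2 there were 2, with LPCAT3 lost. Since this comparison was in view when the members were chosen, nothing is read from these shares. By level, GPX4 and SCD came first and second in both groups. Their ranges overlapped with DMSO, through DMSO replicate 4, and were apart with EB. Neighbours in order of level whose ranges overlapped were FADS2 and LPCAT3, LPCAT3 and ACSL3, and AIFM2 and ACSL4 with DMSO, and LPCAT3 and ACSL3, ACSL3 and FADS2, and ACSL1 and AIFM2 with EB. ALOXE3 ranked below ACSL4 with DMSO and above it with EB, without overlap in either group.

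**Figure D3:**
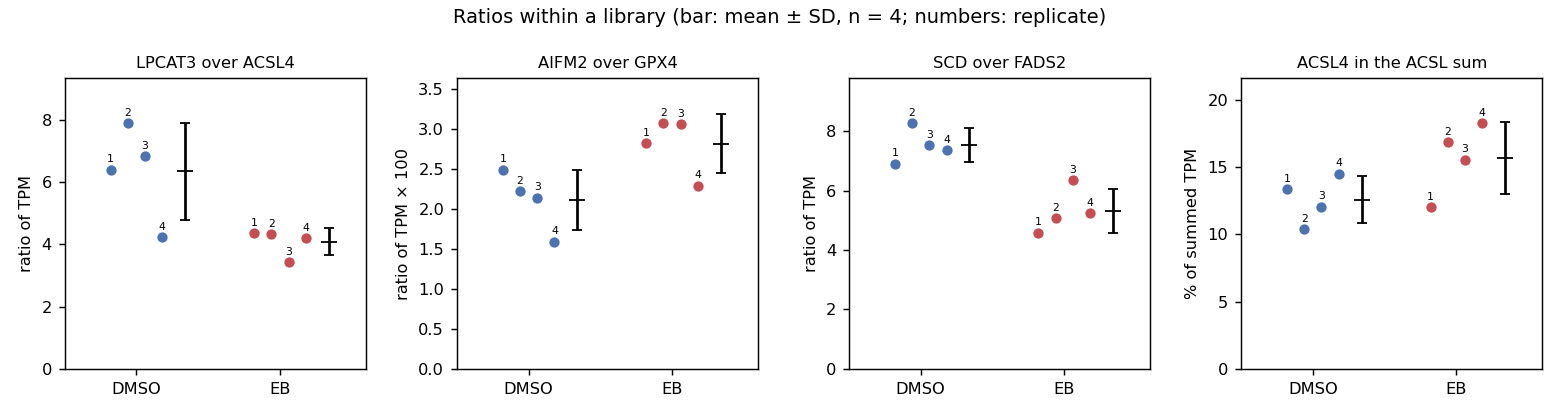
Ratios of TPM within a library (vertical axes, each from 0) for LPCAT3 over ACSL4, AIFM2 over GPX4 times 100, SCD over FADS2 and the percentage of ACSL4 in the sum of ACSL1, ACSL3, ACSL4, ACSL5 and ACSL6, with points, replicate numbers and mean ± SD for DMSO and EB. The SCD to FADS2 ratios of the groups do not overlap (6.91 to 8.28 and 4.59 to 6.35), and in the other panels they do.

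The wider lipid pathways were described with 204 other genes in 9 classes, of which 168 were tested. Of these, 20 rose and 29 fell at a limma adjusted p under 0.05, which is 11.9% and 17.3% beside 15.2% and 25.1% of all tested genes, and their median log2 fold change was −0.06. The balance depended on the scaling, with 41 higher and 34 lower after median-ratio scaling, 39 and 33 after quantile normalization, 32 and 33 with the length trend removed and 18 and 69 without the mitochondrial genes. In the main fit none passed the fold threshold of the study. Some did under alternatives, such as ACACB (−1.63) and INSIG1 (−1.53) without DMSO replicate 4 and PLIN4 (−1.61) with a pseudocount of 0.1.  Without DMSO replicate 4 the count that fell was 57, and without DMSO replicate 1, 2 or 3 or EB replicate 3 or 4 it was 16 to 19. The count that rose was 13 without DMSO replicate 3, EB replicate 1 or EB replicate 3.

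In the class of desaturation and elongation, the branch of SCD and FADS2, 0 of 15 tested genes rose and 5 fell. That is 0% and 33.3%, beside 15.2% and 25.1% of all tested genes. The median log2 fold change of the class was −0.19. ELOVL5, which elongates the products of FADS2, fell by 0.74 on the log2 scale (limma adjusted p = 0.00482), with means of 91.0 ± 16.2 TPM for DMSO and 53.4 ± 4.04 for EB (SD, n = 4 each). FADS1, the delta-5 desaturase, was at −0.63 (limma adjusted p = 0.0478), but its groups overlapped and the call was lost in 10 of 17 alternatives, among them leaving out any library other than DMSO replicate 4 (−0.66 to −0.45) and removing the length trend (−0.35), and limma adjusted p values over the alternatives ran from 0.00184 to 0.12. CYB5B fell by 0.55 and HACD2, an elongation-cycle dehydratase, by 0.52, and with the length trend removed they were at −0.28 and −0.26. HACD2 lost its call without DMSO replicate 3 (−0.45) or without EB replicate 3 (−0.47). Of the desaturase paralogs not called, SCD5 had a log2 fold change of −0.36 (limma adjusted p = 0.053) and FADS3 of 0.36 (limma adjusted p = 0.11).

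In the class of fatty acid synthesis 0 of 18 tested genes rose and 4 fell. That is 0% and 22.2%, beside 15.2% and 25.1% of all tested genes. The median of the class was −0.20. INSIG1, the sterol-regulated retention protein of the SREBP pathway, fell by 1.41 on the log2 scale (limma adjusted p = 0.000717), with means of 34.4 ± 6.43 TPM for DMSO and 12.4 ± 2.83 for EB (SD, n = 4 each). SREBF1, which encodes the transcription factor SREBP-1 that drives lipogenic genes such as SCD, FADS2 and FASN, fell by 0.84 (limma adjusted p = 0.00685), with means of 188.7 ± 44.8 TPM for DMSO and 102.2 ± 7.47 for EB (SD, n = 4 each). ACACB, the mitochondrial acetyl-CoA carboxylase, fell by 1.36 (limma adjusted p = 0.00561). FASN, the fatty acid synthase, was at −0.78 (limma adjusted p = 0.0451) with overlapping groups. Its call was lost in 10 of 17 alternatives, again with any library but DMSO replicate 4 left out (−0.84 to −0.67), and its limma adjusted p ranged from 0.000599 to 0.237. The canonical transcripts of FASN and ACACB have 8464 and 9368 nucleotides, and with the length trend removed the fold change of FASN was −0.27, that of ACACB −0.83 and that of SREBF1 −0.50.

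Genes that take up and activate fatty acids moved both ways, with 4 of 17 higher and 6 lower. That is 23.5% and 35.3%, beside 15.2% and 25.1% of all tested genes. The fatty acid transport proteins SLC27A1 (−1.27) and SLC27A3 (−1.17) fell, and the intracellular carrier FABP5 rose by 1.15 (limma adjusted p = 0.000113), with means of 58.1 ± 2.59 TPM for DMSO and 130.4 ± 5.08 for EB (SD, n = 4 each). ACOT7, a thioesterase that cleaves acyl-CoA, rose by 0.91. Among 24 genes of acyl chain remodelling, 2 rose and 3 fell, which is 8.33% and 12.5% and below the shares of all tested genes. PRDX6, which reduces phospholipid hydroperoxides and has phospholipase activity, rose by 0.70, PLAAT1 rose by 0.70 (0.39 with the length trend removed), and the phospholipase genes PLA2G4C (−0.94) and PNPLA6 (−0.92) fell.

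In the class that defends lipids from peroxides and radicals, 6 of 31 tested genes rose and 2 fell. That is 19.4% and 6.45%, beside 15.2% and 25.1% of all tested genes. The 2 genes that fell were DHODH and COQ2, described below with the further called genes. The members GPX4 and AIFM2, not counted here, were not called. MGST1, a microsomal glutathione transferase with peroxidase activity, rose by 1.21 on the log2 scale (limma adjusted p = 0.000384), with means of 49.4 ± 6.82 TPM for DMSO and 115.6 ± 14.8 for EB (SD, n = 4 each). GPX8, an endoplasmic reticulum peroxidase of the GPX4 family, rose by 0.97, and PTS, an enzyme of tetrahydrobiopterin synthesis, by 0.95 (0.62 with the length trend removed). NQO1, a quinone reductase, rose by 0.83 (limma adjusted p = 0.0135), with means of 386.4 ± 98.3 TPM for DMSO and 680.8 ± 153.6 for EB (SD, n = 4 each). GPX1, the cytosolic glutathione peroxidase, was at −0.52 (limma adjusted p = 0.0642) and GPX3 at 0.30 (limma adjusted p = 0.436).

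The remaining lipoxygenase and cyclooxygenase class had 0 of 7 genes higher and 2 lower, ALOX12 and LTA4H (−0.43), the leukotriene A4 hydrolase. That is 0% and 28.6%, beside 15.2% and 25.1% of all tested genes. Of 16 genes of lipid droplets and triglyceride, 4 rose and 3 fell, which is 25% and 18.8% beside the same shares of all tested genes. GPAT3, which starts glycerolipid synthesis, rose by 1.35 (limma adjusted p = 0.000113), with means of 15.8 ± 1.39 TPM for DMSO and 42.1 ± 4.39 for EB (SD, n = 4 each). PLIN2, the common lipid droplet coat protein, rose by 0.82. PLIN4 fell by 1.16 and was at −0.71 with the length trend removed. LPIN2 was at −0.77 and lost its call without DMSO replicate 1, 2 or 3 or EB replicate 3 or 4 (−0.73 to −0.62), without the filter on low values (−0.77) and with the length trend removed (−0.35). In fatty acid oxidation 3 of 25 genes rose and 3 fell, which is 12% each and below the shares of all tested genes. CPT2, of the carnitine shuttle, fell by 0.84, while ETFB (0.78) and ECI1 (0.71) rose and CPT1C (−0.45) fell with calls that were lost without DMSO replicate 3 or EB replicates 1, 2 or 3 for ETFB (0.72 to 0.83, and 0.78 without the filter), EB replicates 1 or 3 for ECI1 (0.61 to 0.66) and any library but DMSO replicate 4 or EB replicate 1 for CPT1C (−0.46 to −0.38). With the length trend removed ETFB was at 0.45, and after quantile normalization CPT1C was at −0.29. Of 15 genes of ether lipids and peroxisomes, 1 rose and 1 fell, which is 6.67% each and again below those shares. CHPT1 rose by 0.82 and PEX3 fell by 0.41, the latter not past the test without DMSO replicate 1 (−0.35) or EB replicate 3 (−0.40).

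The small counts above also hold 11 called genes beyond the 4 largest of their class, which are named after their values were seen. They were ELOVL7 (−0.42), MBOAT2 (−0.52), DHODH (−0.63), COQ2 (−0.30), ACADM (−0.34) and LPIN3 (−0.71) among the genes that fell, and SLC27A4 (0.59), ACOT9 (0.46), ACADVL (0.39), GPAT4 (0.56) and ABHD5 (0.42) among those that rose. Each of them lost its call in 2 to 9 alternatives. For 10 of them that happened with 3 to 7 of the libraries left out in turn, DMSO replicate 4 not among these. MBOAT2, a lysophospholipid acyltransferase that places monounsaturated chains, kept its call with every library left out but was at −0.23 after quantile normalization and −0.03 with the length trend removed. With the length trend removed DHODH, a mitochondrial enzyme that reduces ubiquinone, was at −0.31, ELOVL7 at −0.19 and LPIN3 at −0.41, while COQ2 was at −0.50, ACOT9 at 0.74, GPAT4 at 0.998 and ABHD5 at 0.79. Without the mitochondrial genes ACOT9 was at 0.28, ACADVL at 0.21, ABHD5 at 0.27 and COQ2 at −0.49, and without DMSO replicate 4 SLC27A4 was at 0.38.

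**Figure D4:**
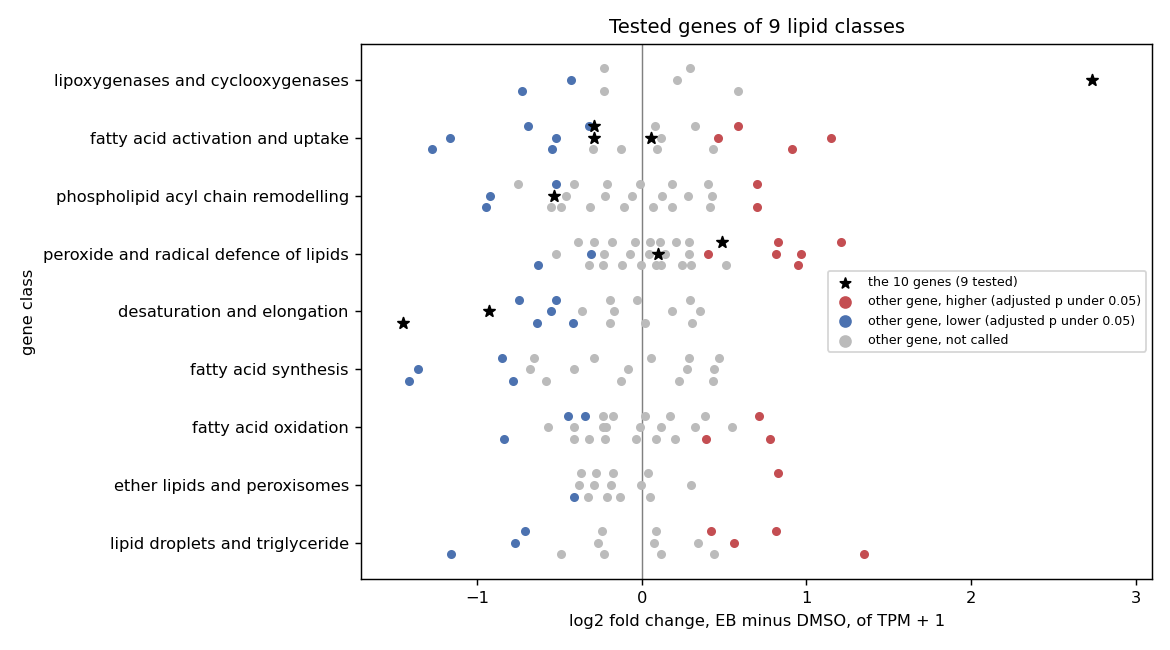
Log2 fold change, EB minus DMSO, of TPM + 1 (horizontal axis) for every tested gene of 9 lipid classes (vertical axis), with the 9 tested members as stars and other genes coloured by their call at a limma adjusted p under 0.05. ALOXE3 lies apart at 2.74, and in desaturation and elongation and in fatty acid synthesis the called genes lie below 0.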

How the data were processed

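Per the labels and the methods of the study, RNA of PANC-1 cells was made into libraries with an mRNA kit and sequenced, and the authors deposited gene-level TPM for 8 libraries. The study names CLC Genomics Workbench and both a mouse (GRCm38, mm10) and a human (hg38) build. The gene identifiers are human. Which build gave the values, and whether reads were counted by strand, is not given in the sources used here. Columns C1 to C4 were read as DMSO and H1 to H4 as EB. TPM keep no depth, so no counting error is given. No libraries were identical.

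Differences were fitted with limma 3.58.1 in R 4.3.3 on log2(TPM + 1), over 11725 genes that reached 1 TPM in 4 libraries or more, without covariates, with Benjamini-Hochberg adjustment over all of them and a threshold of 0.05. The fit was tested on simulated data with independent values, without a trend on transcript length or a library that stood apart. That test therefore cannot show how such features move the calls. The p-values measure the spread between these libraries. Gene positions and canonical transcripts came from GENCODE release 44 and promoter windows from RefSeq, where all 10 members matched by symbol. Members, gene lists and motifs were chosen with earlier results of these data known, and the E-box was added after the windows had been searched for the other motifs. Named genes were the members, their paralogs, up to 4 called genes of each class with the largest absolute fold change, and the 3 profiles nearest to ALOXE3 and to SCD. Outside this rule, and after their values were seen, the genes near ALOXE3 and the further called genes of class counts of 5 or fewer were named. Each fit was repeated without the filter, with the filter at 5 TPM, with 0.1 as pseudocount, after quantile normalization or median-ratio scaling, after removal of mitochondrial genes or of the trend on transcript length, with an intensity trend, with a replicate block and with each library left out.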

Additional observations from a re-analysis of the deposited data

Results flagged for a closer look

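In 15 of 114 groups of 4 libraries, 1 library lay beyond Dixon's 95% limit, where chance gives about 1 in 20 for independent groups. These groups are genes measured in the same libraries and are not independent, so nothing is read from the count. DMSO replicate 4 was that library for ACSL1 (18.9 TPM, others 27.5 to 28.6), SLC27A3 (8.27, others 15.3 to 16.3), SLC27A4 (24.5, others 43.5 to 46.9), GPAT4 (17.9, others 29.3 to 31.5), ACADM (29.2, others 30.3 to 30.4), PNPLA6 (68.3, others 110 to 118), PLAAT1 (8.99, others 12.2 to 12.8), FASN (93.3, others 206 to 224), PLIN4 (2.29, others 4.57 to 4.81) and PLIN2 (31.2, others 40.7 to 42.6). EB replicate 1 was that library for ACSL5, at 0.118 TPM where the others were listed at 0, so that any value above 0 would be flagged. It was also that library for LTA4H (95.2, others 104 to 106). EB replicate 4 was that library for ACOT7 (418, others 313 to 328), DHODH (9.91, the others at 12.5) and PNPLA6 (38.8, others 56.3 to 58.8).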

How the results depend on the processing

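Of the 153 alternative values of the tested members, 134 kept direction and side of the threshold, 7 gained a call, 7 lost it and 5 changed sign. The sign changed for the GPX4 log2 fold change with quantile normalization (−0.172), without mitochondrial genes (−0.0874) and without the length trend (−0.234), for the ACSL3 log2 fold change without the length trend (0.102) and for the ACSL4 log2 fold change without mitochondrial genes (−0.116). Median-ratio scaling gave 2915 of all tested genes higher, 41 lipid genes and 2 members, and quantile normalization 2782, 39 and 2. Without the length trend 32 lipid genes and 2 members were higher, and without mitochondrial genes 4954 genes and 69 lipid genes were lower. At the thresholds of the study 137 genes were higher and 388 lower with a pseudocount of 0.1, 99 and 109 with quantile normalization, 330 lower without mitochondrial genes and 112 lower without the length trend. The median log2 fold change of all genes moved from −0.109 to −0.284 without mitochondrial genes, to 0.0153 with quantile normalization and to 0.017 without the length trend. With 1 library left out, genes higher ranged from 1240 to 1824 and lower from 1950 to 4218, at the thresholds of the study from 53 to 72 and 132 to 280, lipid genes from 13 to 21 and 16 to 57, and members from 1 to 2 and 2 to 4. The count of all genes lower was 1950 without DMSO replicate 3, the count lower at the thresholds of the study 280 without DMSO replicate 4, and the second member higher came without DMSO replicate 1. The causes were not tested. The replicate block gave 2231 genes higher and 3525 lower, 31 lipid genes and 2 members higher. Deviations of libraries with the same number correlated at 0.183, 0.0463, −0.0879 and 0.284. Replicates 1 and 4 correlated best with their own number, and replicates 2 and 3 did not. The mitochondrial share was highest in replicate 4 of both groups, at 39% with DMSO and 20.3% with EB. The main fit did not take the numbers as pairs, and whether they mark pairs is not known.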
